A study of Homo sapiens with 24 samples.

Results

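The arrays described here compared LNCaP cells 48 h after transfection with si-A2, an siRNA against the long non-coding RNA *TAPIR-2*, with LNCaP cells 48 h after a scrambled control siRNA (si-SCRL). They were the 3 si-A2 arrays of replicates 1, 3 and 4 and the 4 si-SCRL arrays of that time, 7 of the 24 samples of the series, chosen by their labels. The fourth si-A2 array of 48 h, replicate 2, was left out because it was dim and correlated poorly with the other arrays. Its median correlation with the other 48 h arrays was 0.629, against 0.968 to 0.975 for the other si-A2 arrays, and its median processed intensity was 13.9, against 20.4 to 32.2 on the other 48 h arrays.

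LNCaP is an established human prostate cancer cell line that responds to androgen, and all cells were the same line, grown in medium with serum and electroporated with one siRNA duplex. The control duplex is a commercial one of medium GC content. Each siRNA was given to 4 biological replicates per time, and other samples of the series had an siRNA against *TAPIR-1* (si-A1) at 48 h, or the same 3 siRNAs at 24 h. Since 1 duplex stood for each target, the effect of losing a transcript and any other effect of that duplex cannot be told apart. RNA was hybridised to one-colour Agilent arrays, with replicates 1 and 2 on 1 slide and replicates 3 and 4 on another, and all values below are log2 normalized intensities or differences between them, except where another unit is named.

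Cell division is driven by waves of transcription. E2F factors turn on the genes of DNA replication, and the MuvB proteins with MYBL2 and FOXM1 later turn on those of the mitotic spindle, the kinetochore and cytokinesis. When p53 is active its target p21, the product of *CDKN1A*, inhibits cyclin-dependent kinases, RB family proteins stay bound to E2F and MuvB proteins (the DREAM complex), and both waves are repressed.

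The labelled cell type was checked against marker genes. All 14 prostate luminal markers were above background and were rated well above it on every si-SCRL and si-A2 array, with a summed linear intensity of 37194 to 57556 on the si-SCRL arrays and of 37054 to 44928 on the si-A2 arrays. Of the markers of other cells, 4 of 5 basal, 5 of 8 fibroblast and smooth muscle, 5 of 5 endothelial and 4 of 6 leukocyte genes were above background. Among these, 4 leukocyte, 3 endothelial and 3 fibroblast and smooth muscle genes were rated well above it on every si-SCRL array. The same numbers were on every si-A2 array. Of the basal genes, 2 were rated well above background on every si-SCRL array and 1 on every si-A2 array. The basal keratin gene *KRT5*, the fibroblast genes *COL1A2*, *COL3A1* and *LUM* and the myeloid genes *CD68* and *LYZ* were not above background. No marker of any list was called. In such bulk samples, fewer cells in a phase of the cell cycle and less RNA per cell cannot be told apart.

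The target itself was measured by 2 probes that the array design assigns to the *TAPIR-2* transcript ENST00000366424. The labels place *TAPIR-2* on chromosome 2 at 1620510 to 1625419 (GRCh38.p12). Probe A_19_P00318461 was well above background on every array. Its values were 4.70, 5.41, 4.02 and 4.44 on the si-SCRL arrays and 5.62, 3.83 and 4.60 on the si-A2 arrays. The si-A2 values lay on both sides of the controls, so the groups overlapped, and the fitted difference was 0.23 ± 0.28 (SE; adjusted p = 0.718, limma). An exact two-sided permutation test over the 7 arrays gave p = 0.971, where the smallest p that 3 against 4 arrays allow is 0.0571. This test, like that of the other probe below, took no account of the slide. Without the slide term the difference was 0.04. The interval of plus or minus 2 SE around the fitted difference of 0.23 ran from -0.32 to 0.79. Probe A_22_P00019831 did not stand well above background on a single array and gives no usable level. Its values were 3.03, 1.72, 2.04 and 3.30 after si-SCRL and 1.03, 2.75 and 2.21 after si-A2, and they overlapped as well (exact two-sided permutation p = 0.457). A lower level of *TAPIR-2* was thus not detected by these probes at 48 h. No probe matched *TAPIR-1* by accession.

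**Figure D1:**
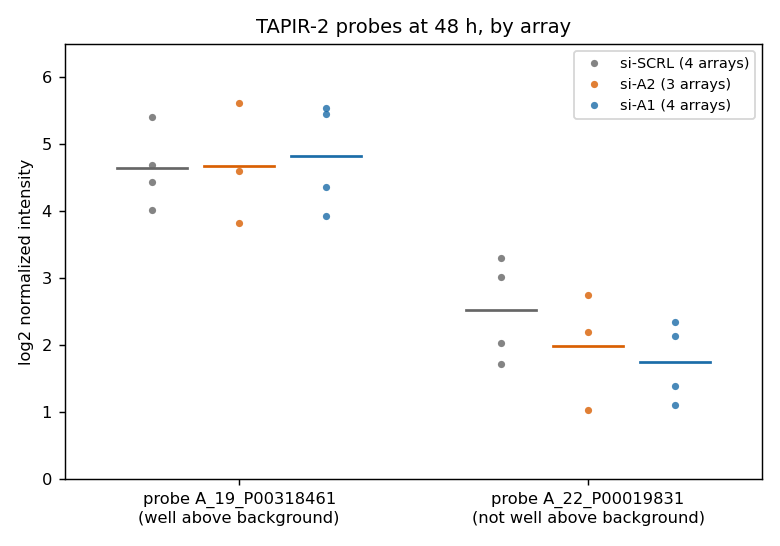
Log2 normalized intensity (y axis) of the 2 *TAPIR-2* probes (x axis) on each 48 h array, with a point for each array and a line at the mean of the group. For probe A_19_P00318461 the si-A2 points lie on both sides of the si-SCRL points, and the probe A_22_P00019831 is near background in all groups.

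Against si-SCRL, 45 genes passed the test after si-A2. The threshold was an adjusted p from limma below 0.01 with a log2 fold change of 0.5 or more in either direction. Of these, 38 fell (0.242% of the 15705 genes tested) and 7 rose (0.0446%). The decreases were led by genes of mitosis, such as *CENPF*, *CENPA*, *PTTG1* and *INCENP*, together with *GPSM2*, *ERG28*, *FAM72D*, *STMN1*, *NPC2* and *GAS2L3*. The increases were *PCAT1*, *ITGAL*, *MAP2*, *PLA2G2A*, *ITPR1*, *USP43* and the transcript ENST00000621052. In all 45 genes the si-A2 arrays with a value lay on one side of every si-SCRL array, where 7.97% of all genes tested had all si-A2 arrays below and 3.35% had them all above. Since the 45 were chosen on these same arrays, this follows largely from the choice.

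These calls sat close to the threshold. Their adjusted p-values were between 0.00455 and 0.00969, and no gene passed when any 1 of the 11 arrays of 48 h was left out, with the smallest adjusted p then between 0.0149 and 0.0330. With the replicate number as a block in place of the slide, 0 genes fell and 0 rose at the same threshold (smallest adjusted p = 0.0246, limma). At an adjusted p below 0.05, a wider threshold used below for the gene groups, 499 genes were lower (3.18% of those tested) and 128 were higher (0.815%). With 1 array left out these counts were between 117 and 431 lower and between 20 and 99 higher, and 38 to 45 of the 45 genes were among them. At this wider threshold too, 0 genes were lower and 0 were higher when only the 7 si-A2 and si-SCRL arrays were fitted (smallest adjusted p = 0.0597, limma) or when si-A2 replicate 2 was included at equal weight (smallest adjusted p = 0.294). The 44 of the 45 genes that were measured on both slides in both groups moved the same way on each slide. They were chosen on these same arrays, so this is not independent evidence. The p-values measure the spread between these arrays.

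The deepest decreases were in genes of the kinetochore and the spindle. *CENPF* encodes a large kinetochore protein made in G2 and mitosis. It was at 9.20, 9.17, 8.64 and 9.18 on the si-SCRL arrays and at 5.96 and 6.47 on the si-A2 arrays of replicates 3 and 4, the spot of replicate 1 being an outlier that was set aside. *CENPF* fell by 2.73 ± 0.32 (SE; adjusted p = 0.00918, limma), and a second *CENPF* probe was lower by a difference of -2.55. *CENPA*, the histone H3 variant that marks centromeres, was at 5.30, 4.40, 4.02 and 4.62 after si-SCRL and at 2.09, 1.18 and 2.28 after si-A2. Its si-A2 values were not well above background, so the size of its decrease is not a measured fold. The fitted difference was -2.69 ± 0.32 (SE; adjusted p = 0.00833, limma). With other treatments of the background it was -0.42 (normexp, not called) and -0.61 (no background correction, called).

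*PTTG1*, the securin, which inhibits separase until anaphase, was at 7.54, 7.07, 6.61 and 7.28 after si-SCRL and at 5.11, 4.26 and 5.11 after si-A2, without overlap, and fell by 2.23 ± 0.28. *GPSM2*, which orients the mitotic spindle, was at 7.23, 7.16, 6.80 and 7.07 against 5.40, 4.34 and 4.56, and fell by 2.25 ± 0.23. Replicate 1 was the highest of the si-A2 arrays for *GPSM2*, and replicate 3 the lowest for both genes. *INCENP*, a scaffold of the chromosomal passenger complex, went from 5.27, 4.95, 4.89 and 5.08 to 3.42, 2.60 and 3.14 and fell by 1.94 ± 0.20. The size of the *INCENP* decrease depended on the background, at -0.43 with normexp (not called) and -0.61 with no background correction (called). *GAS2L3*, which binds actin and microtubules during cytokinesis, was not well above background after si-A2. Its fitted difference of -1.94 is thus not a measured fold. It was -0.13 with normexp and -0.25 with no background correction, not called in either. The other called genes of mitosis encode the kinesins KIF20A (-1.87) and KIF11 (-1.48), the midzone protein PRC1 (-1.86), the kinase AURKA (-1.71) and its activator TPX2 (-1.43). *AURKA* was at 9.07, 8.89, 8.93 and 8.90 after si-SCRL and at 7.64, 6.81 and 7.17 after si-A2, so that replicate 3 was again the lowest.

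Outside mitosis, *STMN1*, which destabilises microtubules, fell by 1.99 ± 0.20 on its brightest probe, from 9.37, 9.34, 8.73 and 9.24 to 7.62, 6.69 and 7.01. The other *STMN1* probes did not share this, with differences of -0.28 and 0.19, so the call holds for 1 probe of the gene. *FAM72D* fell by 2.05 ± 0.24, but it belongs to a family of near-identical copies that its probe may not separate. The replication-dependent histone gene *H2BC7* fell by 1.74 ± 0.21. Genes of DNA maintenance among the calls were *FANCI* (-1.68), a core protein of interstrand crosslink repair, the helicase gene *PIF1* (-1.71) and *POLQ* (-1.14), the polymerase of end joining. With normexp *FANCI* was at -1.31, *PIF1* at -0.62 and *POLQ* at -0.74, all still called. *CDKN2C*, an inhibitor of CDK4 and CDK6, fell by 1.43 ± 0.18, and *CBX5*, the heterochromatin protein HP1 alpha, by 1.34 ± 0.17. Also lower after si-A2 and after si-A1 were *CTSV*, a lysosomal cysteine protease (-1.84), *SIVA1*, a regulator of apoptosis (-1.32), *YWHAH*, the eta isoform of the 14-3-3 proteins (-1.25), ENST00000540982 (-1.39) and lnc-BEST4-1:1 (-1.15).

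**Figure D2:**
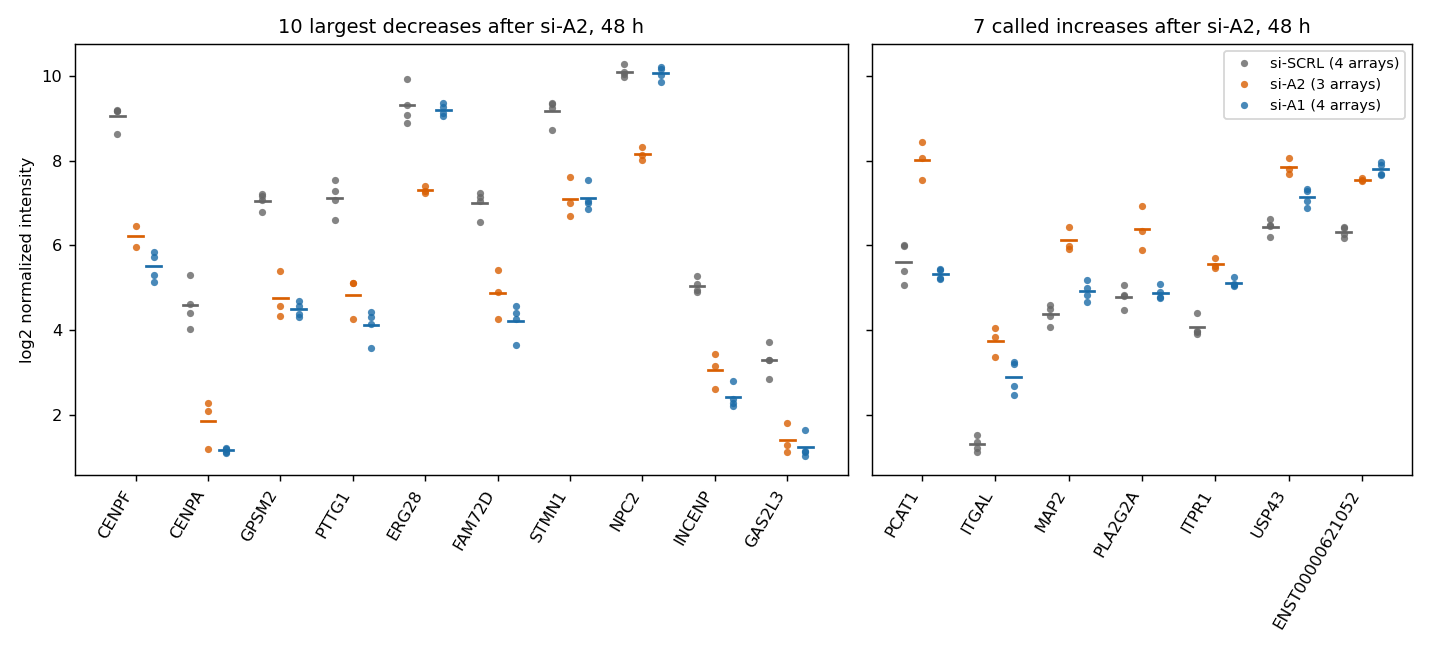
Log2 normalized intensity (y axis) of the 10 genes with the largest decrease and of the 7 genes that rose (x axis) on each 48 h array, with a point per array and a line at the mean for si-SCRL, si-A2 and si-A1. For every gene the si-A2 points lie apart from the si-SCRL points, and *ERG28*, *NPC2*, *PCAT1* and *PLA2G2A* show si-A1 points within or close to the si-SCRL range.

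The gene that rose most was *PCAT1*, a long non-coding RNA known from prostate cancer. It was at 5.99, 6.01, 5.40 and 5.06 on the si-SCRL arrays and at 8.45, 7.55 and 8.06 on the si-A2 arrays, and its fitted difference was 2.48 ± 0.23 (adjusted p = 0.00816, limma). All si-A2 arrays stood above the highest control by more than the controls spread among themselves. *ITGAL*, the alpha chain of the leukocyte integrin LFA-1, was at 1.11, 1.52, 1.35 and 1.20 after si-SCRL, not well above background, and at 3.83, 3.37 and 4.06 after si-A2. Its fitted difference of 2.46 is therefore not a measured fold. It was 0.23 with normexp and 0.39 with no background correction, and the gene was called in neither. The leukocyte marker *PTPRC*, by comparison, had a difference of 0.15 (adjusted p = 0.851). Of the 4 leukocyte markers above background, 3 were higher after si-A2 and 1 was lower. Among the higher ones, 1 had an unadjusted p below 0.05 (limma), as 7.17% of all genes did.

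*MAP2*, a microtubule-associated protein of neurons, rose from 4.33, 4.59, 4.08 and 4.49 to 5.93, 5.98 and 6.45, a difference of 1.72 ± 0.21. *PLA2G2A*, a secreted phospholipase A2, rose from 4.82, 5.07, 4.80 and 4.46 to 6.92, 5.90 and 6.35, a difference of 1.66 ± 0.21. The groups did not overlap in either gene. With normexp the differences were 0.71 for *MAP2* and 0.79 for *PLA2G2A*, and neither was called. With no background correction they were 0.90 (called) and 0.98 (not called). *ITPR1*, an inositol trisphosphate receptor that releases calcium from the endoplasmic reticulum, rose by 1.51 ± 0.17, while its paralogue *ITPR3* fell by 1.22 ± 0.14. The *ITPR1* difference was 0.51 with normexp and 0.66 with no background correction, called in neither. *USP43*, a deubiquitinase gene, rose by 1.38 ± 0.17, and ENST00000621052 by 1.23 ± 0.15, although a second probe of that transcript had a difference of 0.26. The genes next in order among those higher, which did not pass the test, were the p53 target *SPATA18* (adjusted p = 0.0101) and lnc-WFDC8-1:1 and the unnamed probe A_33_P3371260 (adjusted p = 0.0102 for both, limma).

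Over whole gene groups the decrease was wider than the calls. The kinetochore, spindle and cytokinesis list had 56 members above background, all 56 lower after si-A2. Of its 55 members tested, 9 were called and 44 were lower at an adjusted p below 0.05, where 3.18% of all genes tested were. Its median log2 fold change was -1.57, against 0.01 over all 37704 genes above background, and by array the list stood at -1.21, -2.12 and -1.40 against the si-SCRL arrays of the same slide. With another treatment of the background the size was smaller, at -0.78 with normexp and -0.97 with no background correction. Replicate 3 lay lowest and replicate 1 highest, and each si-A2 array was below both si-SCRL arrays of its slide. The G2/M list, which shares genes with it, had 7 of 50 tested members called and 38 lower at the wider threshold, with a median of -1.44 (-0.78 with normexp and -0.91 with no background correction). Among those that did not pass the narrower one were *KIF2C* (-1.54, adjusted p = 0.0102), a microtubule depolymerase, and *TOP2A* (-1.83, adjusted p = 0.0102), the mitotic topoisomerase.

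Replication-dependent histone genes, whose transcripts are made in the S phase, had a median of -1.37, with 1 of 57 tested members called (*H2BC7*) and 47 lower at an adjusted p below 0.05. Their arrays stood at -1.28, -1.83 and -0.92. The lists of replication itself moved less in size. The S phase list had 0 of 37 members called and 20 lower at the wider threshold, with 35 of its 42 members above background lower at an unadjusted p below 0.05, where 8.54% of all genes were, and its median was -0.74 (-0.48 with normexp). The list of deoxynucleotide synthesis and replication had 0 of 37 called and 19 at the wider threshold, with 35 of 41 lower at an unadjusted p below 0.05 and a median of -0.87 (-0.53 with normexp). *TYMS*, which makes thymidylate, had a value of -1.35 (adjusted p = 0.0120), *DUT*, the dUTPase, -1.11 (0.0105), and *MCM5*, a subunit of the replicative helicase, -0.95 (0.0195). The Fanconi anemia and homologous recombination list had 1 of 18 members called (*FANCI*), 5 at the wider threshold and a median of -0.55. The E2F, RB and cyclin-CDK list had the same median of -0.55, and with normexp the medians of these lists were -0.28 and -0.26. It had 1 of 19 tested members called (*CDKN2C*) and 7 lower at the wider threshold, among them *CCNA2*, the cyclin of the S phase and G2 (-1.62, adjusted p = 0.0114).

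The p53 target list went the other way. None of its 17 tested members was called, 8 were higher at an adjusted p below 0.05, where 0.815% of all genes tested were, and 18 of its 35 members above background were higher at an unadjusted p below 0.05 (7.17% of all genes). Its median was 0.26 and its 3 si-A2 arrays stood close together, at 0.32, 0.30 and 0.39. With the probe of each gene chosen after the interquartile filter the median was 0.71. Members without a probe that passes this filter then drop out, so the value need not cover the same genes. With the dim si-A2 array of replicate 2 included at equal weight the median was -0.14, and the median of all genes then was -0.098. *ZMAT3*, an RNA-binding protein and p53 target, was at 5.01, 4.86, 3.58 and 3.54 on the si-SCRL arrays and at 6.21, 6.23 and 6.37 on the si-A2 arrays (2.12 ± 0.30, adjusted p = 0.0114). *CDKN1A* was at 9.01, 9.13, 8.93 and 9.21 against 10.33, 9.99 and 10.59 (1.21 ± 0.22, adjusted p = 0.0211). Neither gene overlapped between the groups. *GADD45A*, a stress sensor, was at 1.06 (adjusted p = 0.0114), *TP53I3*, a quinone oxidoreductase, at 1.21 (0.0163), and *BTG2*, an antiproliferative regulator of mRNA decay, at 0.96 (0.0298). *MDM2*, another p53 target, had a difference of -0.03 and did not pass the filter on the interquartile range.

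**Figure D3:**
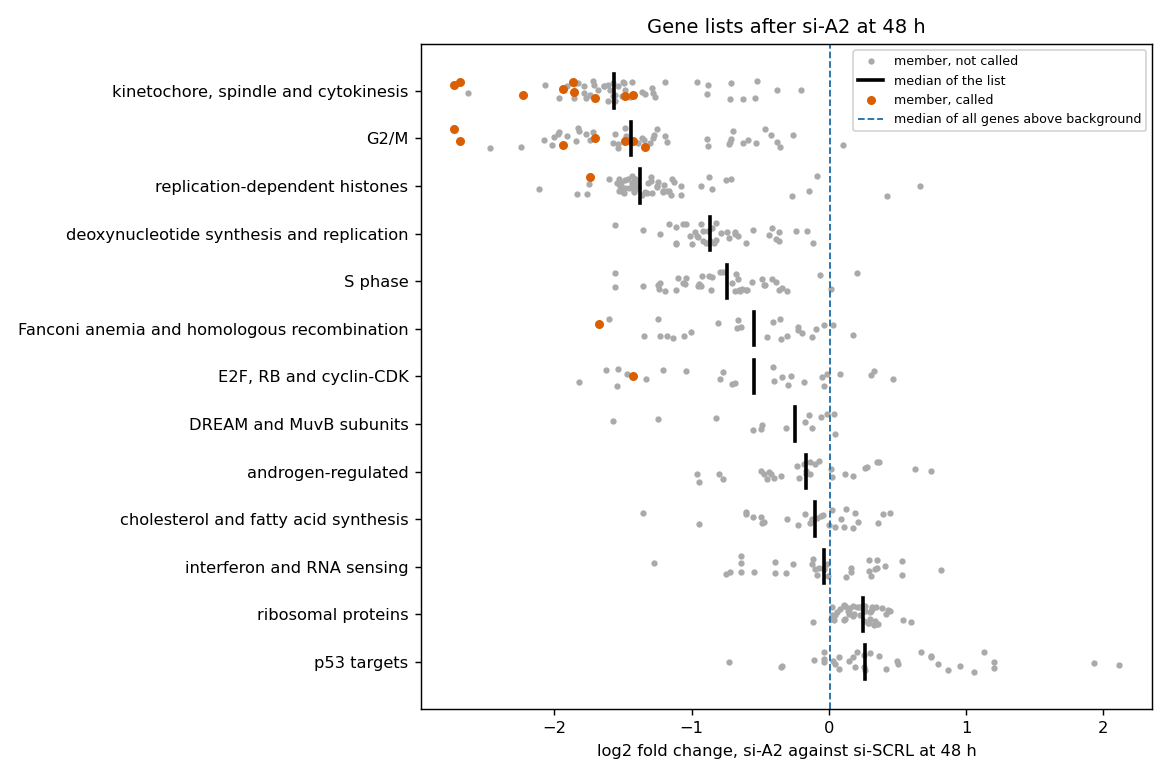
Log2 fold change of si-A2 against si-SCRL at 48 h (x axis) for the members above background of 13 gene lists (y axis), with called members in orange, the median of each list as a black bar and the median of all genes above background as a dashed line. Medians run from -1.57 for the kinetochore, spindle and cytokinesis list to 0.26 for p53 targets.

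Of 18 genes that the study singled out, *AURKA* was the 1 called, 9 with *AURKA* included were lower and 1 (*CDKN1A*) was higher at an adjusted p below 0.05. Since the study chose them on its own samples, their direction is not independent evidence. *CCNB2*, a mitotic cyclin, was at 7.76, 7.34, 6.75 and 7.53 after si-SCRL and at 5.97, 4.60 and 5.29 after si-A2 (-1.97 ± 0.29, adjusted p = 0.0118). *BIRC5*, the survivin gene, was at -1.91 (adjusted p = 0.0171), the mitotic transcription factor gene *FOXM1* at -1.57 (0.0167), and *MYBL2*, a partner of MuvB, at -0.83 (0.0211). The phosphatase gene *CDC25C* was at -1.82 (0.0345), *E2F1* at -1.33 (0.0322), the linker histone *H1-5* at -1.75 (0.0238) and *CHEK1*, a checkpoint kinase, at -1.01 (0.0250). *BRCA1* (-1.13, adjusted p = 0.0551) and *CLSPN*, a mediator of checkpoint signalling (-1.10, 0.0677), missed that threshold.

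For 3 of these genes the probes disagreed. The brightest probe of *CCNB1*, cyclin B1, had a difference of 0.08 (adjusted p = 0.957), with values of 11.93, 12.04, 11.37 and 11.90 after si-SCRL and 12.25, 12.58 and 10.61 after si-A2, and its other probe had one of -1.67. For *MKI67*, the proliferation antigen Ki-67, the brightest probe was at -0.53 (adjusted p = 0.277) and the others at -1.76 and -2.18. For *KIF23*, a kinesin of the midbody, the values were -0.63 (adjusted p = 0.103) and -1.44. The brightest probe was the least lower in each of the 3 genes.

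Lists of other processes were read in the same way. The interferon and RNA sensing list, read because an siRNA is a double-stranded RNA, had a median of -0.04 with none of 19 tested members called. The RNA helicase gene *DDX60* had the smallest p there (adjusted p = 0.0345, limma). It was not well above background after si-A2, so its decrease is not a measured fold. The androgen-regulated list was at -0.16 with none of 21 called, where *KLK3*, which encodes PSA, was at -0.45 (adjusted p = 0.362). Cholesterol and fatty acid synthesis was at -0.10 with none of 11 called, and *FADS1*, a fatty acid desaturase, at -1.35 (adjusted p = 0.0120). The integrated stress and unfolded protein response list was at -0.21. The ribosomal protein list had a median of 0.25 with 49 of 50 members above 0, but its si-A2 arrays were at 0.07, 0.06 and 0.66, so that replicate 4 stood apart. The list of DREAM and MuvB subunits, which also holds the MuvB partner genes *FOXM1* and *MYBL2*, was at -0.24. None of its 6 tested members was called and 3 were lower at an adjusted p below 0.05, where 3.18% of all genes tested were. These were *LIN52*, at -1.25 with an adjusted p of 0.0117 (limma), and the partner genes *FOXM1* and *MYBL2*, above. The neuroendocrine list had a median of 0.27, with 9 of its 12 members above background higher and its si-A2 arrays at 0.17, 0.28 and 0.16. None of its 5 tested members was called and none passed at an adjusted p below 0.05. Its median was 0.086 with normexp and 0.13 with no background correction. *SCG2*, a granin of secretory granules, had the smallest p of the list (adjusted p = 0.151) and was not well above background in either group. Over the remaining 11 lists of processes the medians ran from -0.10 for TGF-beta, adhesion and cytoskeleton to 0.05 for NF-kB and secreted inflammatory factors.

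Beside si-A1, the 38 decreases divided into those called after both siRNAs and those not called after si-A1. Both comparisons share the si-SCRL arrays, so their values are given side by side, and the difference between the siRNAs was tested directly. Against si-SCRL, si-A1 gave 1032 decreases (6.57% of genes tested) and 441 increases (2.81%). The direct contrast of si-A2 with si-A1 called 75 genes lower (0.478%) and 205 higher (1.31%). With 1 of the 11 arrays left out it called between 0 and 62 lower and between 1 and 168 higher, the fewest without si-A2 replicate 1 or without si-A2 replicate 4, so its calls below rest on all arrays. Of the 38 genes, 25 also fell after si-A1, with a median of -1.71 after si-A2 and -2.55 after si-A1, and 21 of the 25 had the larger decrease after si-A1. In the direct contrast 3 of the 25 were called, all less reduced after si-A2, namely *KIF20A* (a difference of 1.42), *FANCI* (1.40) and *POLQ* (1.63). *POLQ* was at 7.34, 7.28, 7.17 and 7.22 after si-SCRL, at 6.21, 5.92 and 6.12 after si-A2 and at 4.42, 4.76, 4.40 and 4.36 after si-A1, and the groups were in 3 separate steps.

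For the remaining 13 decreases the values after si-A1 ran from -0.59 to 0.26, with a median of -0.07 where that after si-A2 was -1.46. In the direct contrast 10 of these 13 were called lower after si-A2. The 13 were chosen by their calls on these same si-A2 and si-A1 arrays, so a difference between the siRNAs is partly built in. *NPC2*, which carries cholesterol out of lysosomes, lies on chromosome 14 at 74479935 to 74493512 (GRCh38.p14). It was at 9.97, 10.05, 10.30 and 10.10 after si-SCRL, at 8.14, 8.02 and 8.33 after si-A2 and at 9.86, 10.03, 10.17 and 10.23 after si-A1. The si-A2 arrays lay below all others by more than the spread of any group, and the difference of si-A2 from si-A1 was -1.94 (adjusted p = 0.00162, limma). *NPC2* had the smallest p of the comparison with si-SCRL as well (-1.97 ± 0.15, adjusted p = 0.00455).

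*ERG28*, a scaffold of the sterol C4 demethylation complex in the endoplasmic reticulum, was at 8.91, 9.08, 9.94 and 9.33 after si-SCRL, at 7.23, 7.41 and 7.29 after si-A2 and at 9.12, 9.06, 9.27 and 9.37 after si-A1. The si-A2 arrays were the only low ones, and the difference from si-A1 was -1.96 (adjusted p = 0.00229). *ADD3*, a protein of the cortical actin and spectrin network, differed by -1.78 between the siRNAs, *BCL6*, a transcriptional repressor, by -1.63, and *YWHAE*, the epsilon isoform of the 14-3-3 proteins, by -1.59 (adjusted p = 0.00229 for each). The pseudogene *YWHAEP1* gave nearly the same values as *YWHAE* and its probe may read the same transcript, so the pair counts with caution. The others called lower in the direct contrast were *PTGFR*, the prostaglandin F receptor (-1.04), *CERS6*, a ceramide synthase (-0.99), and ENST00000540399 and lnc-CHD1L-1:3, which were not well above background after si-SCRL or si-A2 and get no fold. *MMD* (-0.92), the vesicle protein gene *VAMP3* (-0.77) and *NUDT4*, a diphosphoinositol polyphosphate phosphohydrolase (-0.73), did not pass in the direct contrast (adjusted p = 0.0142, 0.0286 and 0.0169).

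Of the 7 increases, 3 were also called after si-A1, *ITPR1* (1.05 after si-A1), ENST00000621052 (1.48) and *ITGAL*, which stayed at background on all si-SCRL and si-A1 arrays and gets no fold there. *PCAT1* was at 5.21, 5.42, 5.24 and 5.45 after si-A1, within the range of si-SCRL, and the difference of si-A2 from si-A1 was 2.77 (adjusted p = 0.00162). *PLA2G2A* was higher by 1.57 (adjusted p = 0.00487), with a value of 0.09 after si-A1. For *MAP2* (1.18, adjusted p = 0.0119) and *USP43* (0.68, adjusted p = 0.0436) the difference between the siRNAs did not pass.

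**Figure D4:**
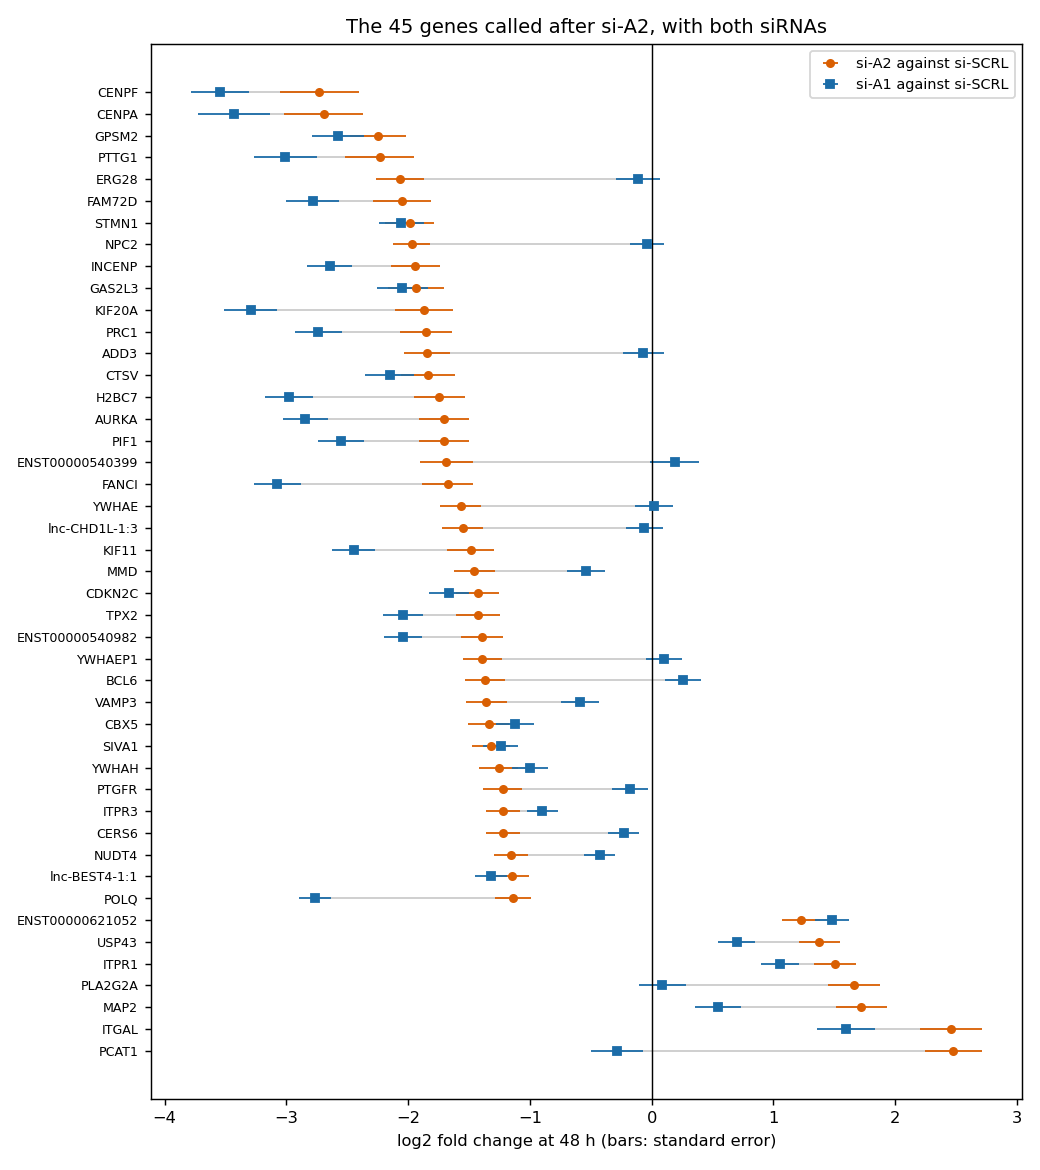
Log2 fold change against si-SCRL at 48 h (x axis, bars are the standard error) of the 45 genes called after si-A2 (y axis), for si-A2 (circles) and si-A1 (squares) joined by a line. Most genes of mitosis have the square to the left of the circle, and *ERG28*, *NPC2*, *ADD3*, *YWHAE* and *BCL6* have the square near 0.

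Over the lists of the cell cycle and DNA repair pooled, 265 genes were above background at 48 h, 254 of them lower after si-A2 than after si-SCRL. Of all genes above background 48.3% were lower. Of the 234 tested, 150 were lower at an adjusted p below 0.05 and 0 were higher. Over all genes tested these shares were 3.18% and 0.815%. In 242 of the 265 the level after si-A2 stayed above that after si-A1. Over all genes above background the median difference of si-A2 from si-A1 was -0.04. The direct contrast called 50 of the 265 higher after si-A2 and 0 lower, against 1.31% and 0.478% of all genes tested. By list, the kinetochore, spindle and cytokinesis median was -1.57 after si-A2 and -2.85 after si-A1, the histone median -1.37 and -2.38, and the S phase median -0.74 and -1.51. For p53 targets the medians were 0.26 and 0.44, and none of them was called in the direct contrast.

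Promoter sequences are shown for 3 genes of mitosis that fell after both siRNAs and for *ERG28*, which fell after si-A2 and was not called after si-A1, because genes of late cell cycle transcription often carry a cell cycle genes homology region (CHR; TTTGAA or TTTAAA) and CCAAT boxes near their start. The windows run from 250 bases before to 50 bases after the RefSeq start (GRCh38.p14), 5′ to 3′ on the gene's strand, with either motif on either strand in capitals. They are *CENPA* at chr2:26785806-26786105 (plus strand), *PRC1* at chr15:90994486-90994785 (minus), *KIF11* at chr10:92592880-92593179 (plus) and *ERG28* at chr14:75660827-75661126 (minus).
CENPA: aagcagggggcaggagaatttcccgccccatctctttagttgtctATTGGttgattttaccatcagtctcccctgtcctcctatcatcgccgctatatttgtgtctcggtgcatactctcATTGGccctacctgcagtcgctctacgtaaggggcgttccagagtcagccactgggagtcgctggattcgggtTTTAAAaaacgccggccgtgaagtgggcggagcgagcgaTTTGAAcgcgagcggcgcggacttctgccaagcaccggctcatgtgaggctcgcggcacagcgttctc
PRC1: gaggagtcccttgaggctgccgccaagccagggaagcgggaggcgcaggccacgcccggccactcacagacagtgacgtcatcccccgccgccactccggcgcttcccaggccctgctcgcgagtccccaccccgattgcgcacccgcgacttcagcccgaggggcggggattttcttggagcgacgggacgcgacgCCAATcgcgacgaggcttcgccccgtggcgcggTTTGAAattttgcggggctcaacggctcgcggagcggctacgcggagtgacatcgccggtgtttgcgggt
KIF11: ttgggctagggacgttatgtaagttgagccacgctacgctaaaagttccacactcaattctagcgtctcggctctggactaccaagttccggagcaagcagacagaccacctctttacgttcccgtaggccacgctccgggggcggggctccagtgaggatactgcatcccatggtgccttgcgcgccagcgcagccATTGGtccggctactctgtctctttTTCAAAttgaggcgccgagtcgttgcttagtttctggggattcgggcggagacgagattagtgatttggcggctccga
ERG28: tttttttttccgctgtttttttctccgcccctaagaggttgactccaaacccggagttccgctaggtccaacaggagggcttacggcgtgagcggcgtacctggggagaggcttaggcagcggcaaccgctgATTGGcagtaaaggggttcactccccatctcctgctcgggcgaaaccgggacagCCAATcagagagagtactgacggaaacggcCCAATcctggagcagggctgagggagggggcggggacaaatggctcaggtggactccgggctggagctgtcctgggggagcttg

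In *CENPA*, TTTGAA lay at positions -18 to -13 from the start and TTTAAA at -57 to -52, in *PRC1* TTTGAA at -20 to -15, and in *KIF11* TTTGAA on the opposite strand at -28 to -23. *PRC1* and *KIF11* each had a CCAAT at -53 to -49, on opposite strands. *ERG28* held 3 CCAAT and neither form of the CHR. No 2 matches overlapped. Of the 25 genes called lower after both siRNAs, 20 had a promoter in the table, with 29 windows among them since a gene can have several starts. TTTGAA or TTTAAA was in 15 of the 29 windows (51.7%), against 24.0% of all 35116 windows, and in at least 1 window of 14 of the 20 genes, against 27.9% of all 27305 genes. Of the 13 called lower after si-A2 and not after si-A1, 10 had a promoter, and 2 of their 15 windows, in 2 genes, held it. CCAAT was in 20 of the 29 windows and 4 of the 15, against 34.6% of all windows. A match says that these letters are in the window and is not a measure of binding.

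At 24 h the same comparison was made on another version of the array with its own si-SCRL arrays, so time and array version are the same split. There, 208 genes fell (1.54% of 13487 tested) and 6 rose (0.0445%). Of all 214, 18 were also called at 48 h, all of them lower, which is 40% of the 48 h calls and 8.41% of the 24 h calls. The agreement in direction was wider, since 196 of the 199 genes called lower at 24 h and measured at 48 h were lower there too. Of all genes above background at 48 h, 48.3% were lower. Of the 45 genes called at 48 h, 39 had a value at 24 h and 38 of them went the same way, the exception being *ITGAL*, which was not well above background in either group at 24 h. *NPC2* was at -3.13 at 24 h and -1.97 at 48 h, *ERG28* at -1.70 and -2.07, and *CERS6* at -1.90 and -1.22, all called at both times. Of the 13 decreases not called after si-A1, 11 had a value at 24 h, all below 0, and 7 were called there. Of all genes above background at 24 h, 43.1% were lower.

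The lists of replication were further from 0 at 24 h, with a median of -1.46 for the S phase against -0.74 at 48 h, while the kinetochore list was at -1.53 and -1.57. A test of the difference between the times in 1 joint fit called 11 features of 30129, 10 with the higher effect at 48 h (0.0332%) and 1 with the lower (0.00332%). With 1 si-A2 or si-SCRL array left out, between 3 (without si-A2 replicate 1 of 48 h) and 24 (without si-A2 replicate 3 of 48 h) had the higher effect at 48 h. Among the 10 were genes of replication and its surveillance. *EXO1*, an exonuclease, went from -2.66 at 24 h to -0.77 at 48 h, and *MCM5* from -2.10 to -0.92. *CLSPN*, *DTL*, which directs PCNA-coupled protein degradation, and *BRCA1* were all at background after si-A2 at 24 h, so the size of their decrease there is not measured. At 48 h they were at -1.11, -0.94 and -1.04. *ITGAL* was not well above background in either group at 24 h nor after si-SCRL at 48 h, and the size of its difference between the times is not a measured fold. *PTTG2*, a paralogue of *PTTG1*, was the 1 with the lower effect at 48 h (-0.16 and -1.14). Of the 42 genes called at 48 h that could enter this test, *ITGAL* was the only one with a called difference, with that limit.

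**Figure D5:**
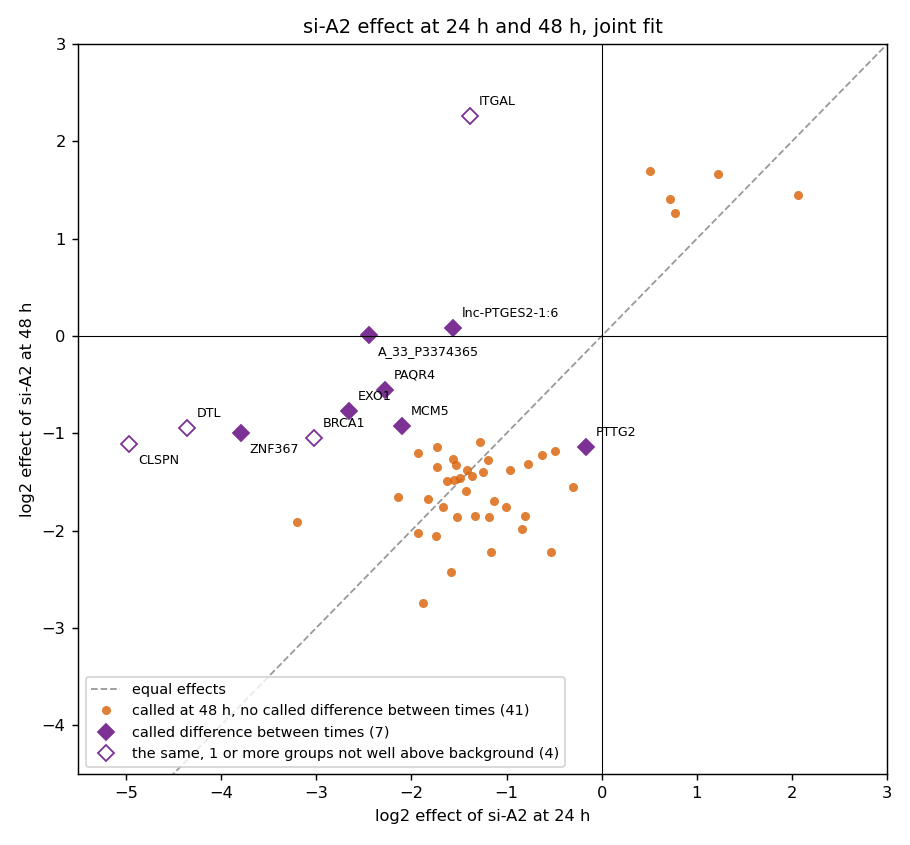
Log2 effect of si-A2 against si-SCRL at 24 h (x axis) and at 48 h (y axis) in the joint fit, for the genes called at 48 h (circles) and the 11 features whose effect differed between the times (diamonds, named, open where a group stayed at background at 1 or both times), with a dashed line where both effects are equal. *ZNF367* and *EXO1* lie to the left of the line. The open diamonds are *CLSPN*, *DTL*, *BRCA1* and *ITGAL*, whose positions are not measured sizes.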

How the data were processed

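Samples were assigned to siRNA, time and replicate from their labels. The authors deposited Agilent Feature Extraction output, in which background has been subtracted from the processed signal, a linear intensity, together with 24 h and 48 h sets of log2 values, which are quantile-normalized log2 processed intensities. Per the labels and the study's methods, its analysis ran in R 3.4.3 with limma 3.34.8 and removed probes that map to several regions, a step not repeated here.

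The log2 processed intensity was quantile-normalized over the 11 arrays of 48 h (4 si-SCRL, 4 si-A1, 3 si-A2). Spots flagged as outliers were set aside and repeated spots averaged, which gave 58201 probes, of which 31104 were named through RefSeq (GRCh38.p14). Other probes kept the name of the array design. A probe was above background if, on 3 or more arrays, its signal passed the average of the 308 negative controls by more than 3 SDs, as 45200 probes of 37704 genes did. The brightest probe stood for a gene, and 15705 genes whose interquartile range reached 0.5 were tested. One linear model with 3 groups and the slide as an additive term was fitted in R 4.3.3 with limma 3.58.1 (statmod 1.5.0, and the data.table package, version 1.17.8), with Benjamini-Hochberg adjustment over the genes tested, and genes were called where the adjusted p was below 0.01 and the log2 fold change 0.5 or more in size. Tables and exact tests used Python 3.11.15 (numpy 2.4.6, scipy 1.17.1, pandas 2.3.3). The effects at 24 h and 48 h were compared in 1 joint fit over 35826 probes present on both array versions. The scripts were tested on simulated data. Where a group was not well above background, its difference was not read as a measured fold.

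The number of arrays and the signal over background limit the precision. On the 48 h arrays used, 60.3% to 66.5% of spots were well above background and none was saturated. Same-numbered si-A2 and si-SCRL arrays deviated together (correlations of 0.29, 0.19 and 0.20), but so did arrays of the same slide with other numbers (0.13 to 0.29), and each number lies on 1 slide.

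Members of the comparison, gene lists, tests and named genes were chosen with earlier results of these data known. Named were the genes the study singled out, the 10 largest called decreases, all called increases followed by the next by p up to 10, called members of the lists or otherwise up to 3 with the smallest p, and the cell type markers. The other called genes, second probes and the genes whose effect differed between the times were named after their values were seen. Some genes are not reported here. Alternatives were another scaling, background correction, filter, probe rule, slide or replicate term, variance prior, threshold or set of arrays, each array left out in turn, and the authors' log2 values.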

Additional observations from a re-analysis of the deposited data

Results flagged for a closer look

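Among 62 genes whose 4 si-SCRL arrays at 48 h were checked, 5 had 1 array far from the other 3 relative to the range of the group, where chance gives about 1 in 20. *BIRC5* was at 10.07 on replicate 4 against 9.43 to 9.52 on the others, and *CDC25C* was at 5.77 on the same array against 5.34 to 5.41. *CENPF* was at 8.64 on replicate 3 against 9.17 to 9.20, *ITPR1* at 4.41 on replicate 1 against 3.90 to 3.98, and *MMD* at 7.93 on replicate 2 against 7.55 to 7.61. In each of these genes every si-A2 array with a value lay outside the range of the si-SCRL arrays, and *CENPF* had a value on 2 si-A2 arrays. The left-out si-A2 array, replicate 2 of 48 h, stood apart by its median correlation of 0.629 with the other arrays.

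The effect of si-A2 differed between 48 h and 24 h for 11 features (limma, effect at 48 h minus effect at 24 h). The difference was -0.98 for *PTTG2*, 1.18 for *MCM5*, 1.65 for lnc-PTGES2-1:6, 1.72 for *PAQR4* and 1.88 for *EXO1*. It was 1.98 for *BRCA1*, 2.46 for the unnamed probe A_33_P3374365, 2.80 for *ZNF367*, 3.41 for *DTL*, 3.65 for *ITGAL* and 3.86 for *CLSPN*. *CLSPN*, *DTL* and *BRCA1* were not well above background after si-A2 at 24 h, and *ITGAL* was not in either group at 24 h nor after si-SCRL at 48 h, so these 4 differences are not measured sizes. Each time had its own array version, and time and version cannot be told apart here.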

How the results depend on the processing

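The 45 calls after si-A2 depended on the processing more than their direction did. Over 30 alternatives the 45 genes gave 1338 values, of which 609 kept direction and call, 728 kept the direction and lost the call, and 1 turned its direction (ENST00000621052, -0.38 with si-A2 replicate 2 included). In the comparison with si-SCRL, 0 genes fell and 0 rose with 1 array left out (lowest and highest 0), with the replicate number as a block, without a slide term, with only the 7 arrays compared, and with si-A2 replicate 2 included. At an unadjusted p below 0.05 limma then gave 1227 to 1516 lower and 814 to 1820 higher genes with 1 array left out, 1469 and 1446 with the replicate block, 1173 and 596 without a slide term, 1288 and 727 with the 7 arrays, and 1042 and 775 with replicate 2. With replicate 2 and array weights 24 fell and 3 rose. More genes were called lower and higher with normexp (356 and 50), no background correction (435 and 66), no interquartile filter (143 and 24), neither the background nor the interquartile filter (101 and 19), the well above background rating as filter (255 and 42), a trend in the prior variance (441 and 89) and an adjusted p below 0.05 (499 and 128), and 11 rose with the slide as a random block. These counts, and those against si-A1 below, are not all over the same genes. The main fit tested 15705 genes, normexp 2747 and no background correction 3496. There were 37701 tested with no interquartile filter, 47749 with neither filter and 10718 with the rating as filter. With normexp 35 of the 45 genes were among those called. At an adjusted p below 0.05 there were 0 lower and 0 higher with the 7 arrays and with replicate 2 included. Reading each alternative at an adjusted p below 0.05 was chosen after seeing the data.

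Against si-A1, the counts lower and higher were 128 and 415 with normexp, 188 and 512 with no background correction, 14 and 34 without a slide term, 7 and 31 with the replicate block, 0 and 0 with replicate 2 included (117 higher with array weights), 160 and 346 without the interquartile filter, 134 lower with neither filter, 203 and 485 with the rating as filter, 320 and 685 with the trend, and 399 and 698 at an adjusted p below 0.05. With 1 array left out they were 0 to 62 and 1 to 168. For the difference between times, 0 genes had the lower effect at 48 h with 75th percentile scaling and 0 without a slide term, and with replicate 2 included 0 differed in either direction. With 1 array left out, 3 to 24 had the higher and 0 to 5 the lower effect at 48 h.

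Other turned directions were *CCNB1* (-0.74 with replicate 2 included, -0.79 as the median of its probes, -0.0067 without si-A2 replicate 1, -0.0041 without si-SCRL replicate 3, -0.38 without si-A2 replicate 3, and up to 0.61 without si-A2 replicate 4) and the *TAPIR-2* probe A_22_P00019831, which is near background (0.0086 with normexp, 0.16 with replicate 2 included). The causes were not tested.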
